A study of Mus musculus with 34 samples.

Results

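The members described here are 10 genes of the interleukin-6 (IL-6) family pathway, or grouped with it, from receptors to feedback inhibitors. They were measured in livers of WT and SIRTintKO mice before and after partial hepatectomy (PHx). They are the receptor chains *Il6ra*, *Il6st*, *Osmr*, *Lifr*, *Lepr* and *Il22ra1*, the kinase *Jak3*, the transcription factor *Stat3* and the inhibitors *Socs1* and *Socs3*. *Il22ra1*, a receptor chain for interleukin-22, and *Jak3*, a kinase best known from lymphocytes, are grouped with the IL-6 family here. The 10 genes were chosen by name, with earlier results of these data known, from the 78298 genes of the deposited table. All 10 were among the 14980 genes with enough counts to be tested. Cytokines of this family bind a receptor at the cell surface, most often one that contains the shared chain encoded by *Il6st*, and JAK kinases attached to the receptor then phosphorylate STAT3, which enters the nucleus. There STAT3 raises the acute-phase proteins of hepatocytes and also *Socs3*, whose product blocks the receptor and its kinases and so closes a negative feedback loop. In the resected liver, IL-6 and STAT3 are known for preparing hepatocytes to re-enter the cell cycle, a step called priming.

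Bulk RNA-seq was performed on whole liver tissue of male mice on a C57/Bl6 background, 8 to 12 weeks old by the study's methods. SIRTintKO mice carried a Villin-Cre transgene, which is active in the intestinal epithelium, and loxP sites around exon 4 of *Sirt1*, and WT mice carried the floxed *Sirt1* alleles without Cre. Livers were taken from untreated mice at 0 hours (6 WT and 6 SIRTintKO). Others were taken at 6 hours (6 WT and 5 SIRTintKO) and 24 hours (4 WT and 7 SIRTintKO) after surgery, in which the median and the left lateral lobe were removed. These counts come from the sample labels. The study's figure legends instead give 5 livers per group at 6 hours, and 5 WT and 7 SIRTintKO livers at 24 hours. The source of this difference was not tested. The 6-hour time point was set in the priming phase and the 24-hour time point in the proliferative phase, and the comparisons asked how the pathway responded to PHx and whether the genotypes differed. Expression is given as CPM, the count divided by the library size after scaling with edgeR's TMM factors and set to a common total. A gene was said to rise or fall when its edgeR quasi-likelihood test gave a Benjamini-Hochberg adjusted p (edgeR BH-adjusted p) under 0.05 over the 14980 genes. CPM values were not divided by gene length, so levels are compared between libraries and not between genes. A count sums all transcripts of a gene, and membrane-bound and soluble receptor forms were not separated.

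Counts per library ranged from 14892122 to 23480492. The 8 hepatocyte markers examined, among them *Alb* and *Apoa1*, summed to between 35747 and 100654 CPM over all groups. In bulk tissue, fewer cells of a type and less RNA per cell cannot be told apart. The labels number the untreated libraries apart from those after PHx, so a difference in handling and the effect of PHx cannot be told apart. At 24 hours the 4 WT libraries did not lie together. On the first principal component, which held 40.7% of the variance, WT replicates 1 and 2 were at 86.2 and 95.9, above every other library, whereas replicates 3 and 4 were at -8.02 and -17.6, below every 6-hour library. SIRTintKO 24-hour replicate 5 was at 8.10, where the other 6 of its group were at 49.7 or above. WT 0-hour replicate 2 was the highest of its group and outlying in *Il6st*, *Osmr*, *Lepr*, *Stat3* and *Socs1*. The labels place the 4 WT livers in 1 group, and whether the pairs differ in label, time or tissue was not tested, so every WT value at 24 hours depends on that label. Results at 24 hours are therefore also given without these libraries, a choice made after the data were seen.

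**Figure D1:**
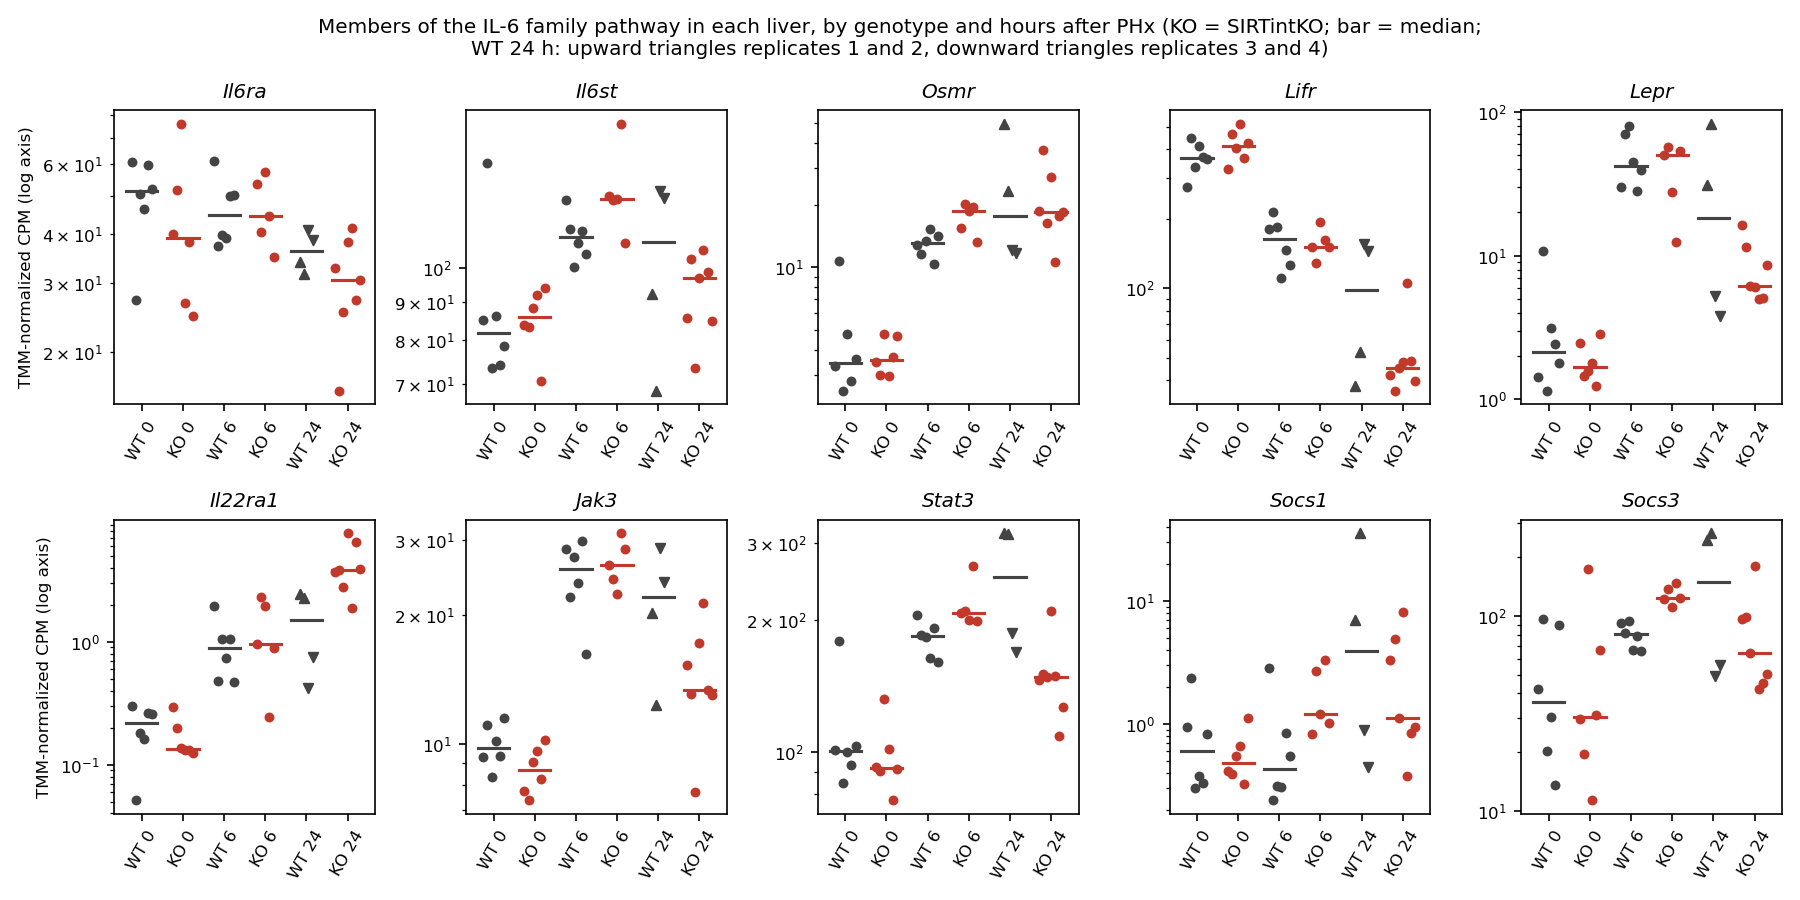
TMM-normalized CPM of the 10 genes in each liver (points) with the group median (bar), on log axes, for WT (grey) and SIRTintKO (red, KO on the axis) at 0, 6 and 24 hours. In WT livers at 24 hours, replicates 1 and 2 (upward triangles) and replicates 3 and 4 (downward triangles) lie apart in most panels, for example at 244 and 265 against 49.1 and 55.7 CPM in *Socs3*.

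At 6 hours after PHx, 5 of the 10 genes rose and 1 fell in WT livers, beside 18.9% of all tested genes that rose and 18.5% that fell. *Osmr*, *Lepr*, *Il22ra1*, *Jak3* and *Stat3* rose and *Lifr* fell. In SIRTintKO livers the same 6 genes changed in the same directions and *Il6st* rose as well, giving 6 that rose and 1 that fell, beside 20.9% and 17.6% of all tested genes. The groups did not overlap in CPM for 4 of the 10 genes in WT livers (24.1% of all tested genes) and for 6 of the 10 in SIRTintKO livers (26.2%). The median log2 fold change of the 10 genes was 0.72 in WT and 1.41 in SIRTintKO livers, against 0.02 and 0.01 over all genes tested. With the added requirement of a log2 fold change over 1 in size, 5 genes in WT and 6 in SIRTintKO livers passed. From these same data the study had already reported *Osmr*, *Il22ra1* and *Jak3* as raised at 6 hours in both genotypes. The 10 genes were chosen with earlier results known, so their shares and medians describe them and are no test of the set.

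At 24 hours against 0 hours, 7 genes rose and 1 fell in WT livers, beside 19.5% and 14.6% of all tested genes. In SIRTintKO livers 6 rose and 1 fell, beside 26.2% and 24% of all tested genes. These comparisons share the 0-hour livers with those at 6 hours. Both inhibitors were among the genes that rose in WT livers at this time, and *Socs1* rose in SIRTintKO livers. The groups did not overlap for 4 of the 10 genes in WT livers (19.3% of all tested genes) and for 4 in SIRTintKO livers (22%). Without WT 24-hour replicates 1 and 2, only *Osmr*, *Jak3*, *Stat3* and *Lifr* passed in WT livers, the first 3 higher and the last lower, and the shares over all tested genes were then 3.02% higher and 2.48% lower. Without replicates 3 and 4, the 8 calls with all libraries were each made again, beside 25.2% and 23.6% of all tested genes.

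**Figure D2:**
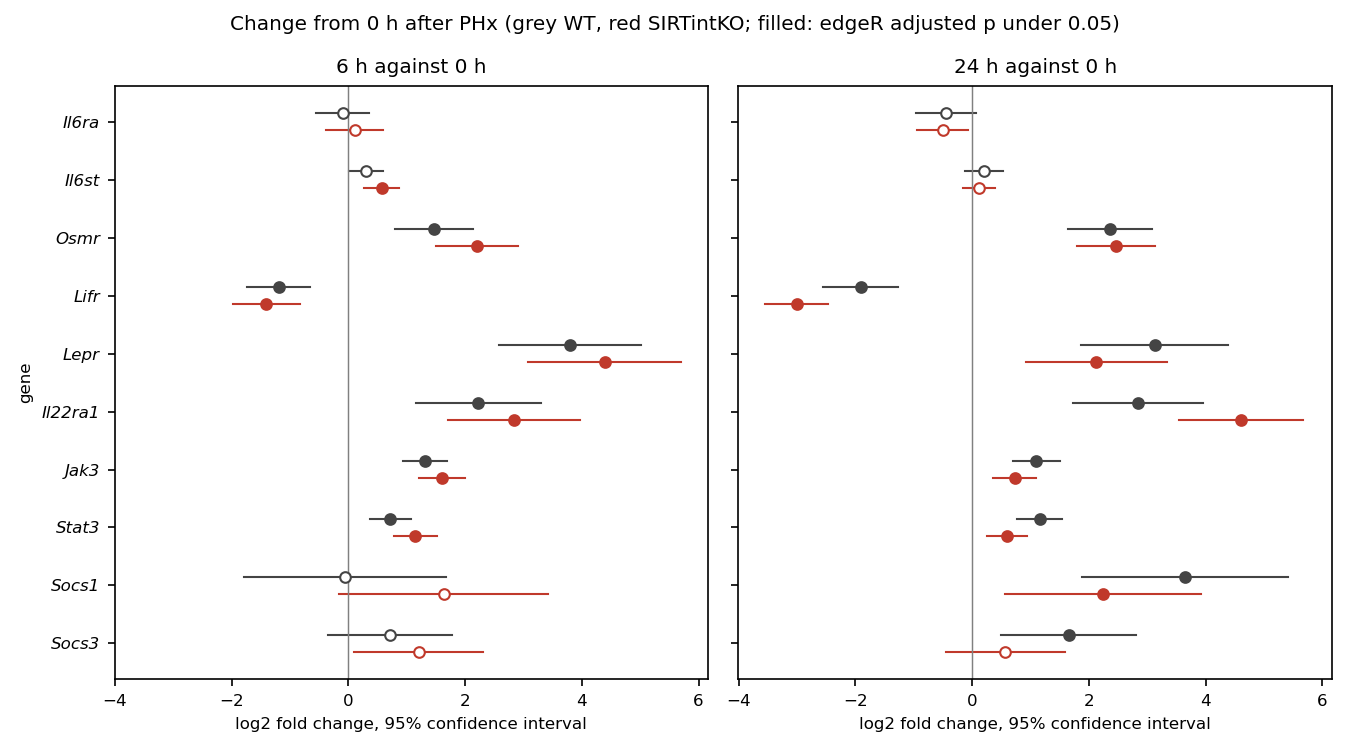
Log2 fold change from 0 hours (points) with its 95% confidence interval (lines) for the 10 genes at 6 hours (left) and 24 hours (right), in WT (grey) and SIRTintKO livers (red). Filled points passed an edgeR BH-adjusted p under 0.05, and *Lifr* is the gene that passed below 0 in each of the 4 comparisons.

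Among the receptors, *Lepr* changed most in size at 6 hours. It encodes the leptin receptor, which belongs to the same receptor class and also acts through STAT3. In WT livers it was at 1.14 to 10.8 CPM (median 2.12) at 0 hours and at 28.2 to 80.4 CPM (median 42.0) at 6 hours. In SIRTintKO livers it was at 1.25 to 2.86 CPM (median 1.68) at 0 hours and at 50.0, 57.1, 27.6, 12.5 and 53.8 CPM at 6 hours. Each 6-hour liver was above each 0-hour liver of its genotype. The log2 fold change was 3.80 in WT livers (SE 0.600, edgeR BH-adjusted p = 1.02e-05) and 4.39 in SIRTintKO livers (SE 0.643, edgeR BH-adjusted p = 4.1e-06). The highest 0-hour value was that of WT replicate 2.

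By 24 hours *Lepr* had come down again in SIRTintKO livers, to 5.02 to 16.4 CPM (median 6.17), a log2 fold change of -2.27 against 6 hours (edgeR BH-adjusted p = 0.00244). These livers were still above their 0-hour controls (log2 fold change 2.13, edgeR BH-adjusted p = 0.00367). In WT livers at 24 hours it was at 31.1, 83.0, 5.24 and 3.78 CPM. The first pair were as high as livers at 6 hours, and the second pair lay within the WT range at 0 hours, below its replicate 2. The WT log2 fold change against 0 hours was 3.13 (edgeR BH-adjusted p = 0.000291), and it was 0.36 (edgeR BH-adjusted p = 0.821) without replicates 1 and 2. *Lep*, the gene of its ligand, did not pass the filter on low counts, and its group medians were 0 CPM.

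*Osmr*, which encodes the chain that pairs with the *Il6st* product to bind oncostatin M, rose at both times in both genotypes. At 0 hours it was at 2.52 to 10.8 CPM (median 3.46) in WT and 2.98 to 4.78 CPM (median 3.58) in SIRTintKO livers. By 6 hours *Osmr* was at 10.4 to 15.3 CPM (median 13.1) in WT livers and at 15.5, 20.3, 18.7, 19.5 and 13.3 CPM in SIRTintKO livers. The WT groups overlapped only through replicate 2 at 0 hours, and the SIRTintKO groups did not overlap. Log2 fold changes were 1.47 (SE 0.326, edgeR BH-adjusted p = 0.000659) and 2.21 (SE 0.344, edgeR BH-adjusted p = 9.68e-06). At 24 hours the WT livers were at 49.4, 23.4, 12.1 and 11.7 CPM and the SIRTintKO livers at 10.6 to 36.98 CPM (median 18.5), all above the 0-hour livers of their genotype. The log2 fold changes were 2.37 (edgeR BH-adjusted p = 1.08e-05) and 2.46 (edgeR BH-adjusted p = 6.1e-07), and the WT value was 1.35 (edgeR BH-adjusted p = 0.0205) without replicates 1 and 2. *Osm* itself reached at most 1.19 CPM in any liver and did not pass the filter.

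*Lifr* encodes the receptor chain for leukemia inhibitory factor, and the *Osmr* and *Lifr* products both pair with the *Il6st* product. It was the member that fell. At 0 hours it was at 275 to 449 CPM (median 367) in WT and 329 to 517 CPM (median 415) in SIRTintKO livers. The 6-hour livers were at 111 to 214 CPM (median 164) in WT livers and at 152, 129, 195, 162 and 152 CPM in SIRTintKO livers, with no overlap with 0 hours in either genotype. The log2 fold change was -1.19 in WT (SE 0.264, edgeR BH-adjusted p = 0.000632) and -1.41 in SIRTintKO livers (SE 0.282, edgeR BH-adjusted p = 0.000233).

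At 24 hours *Lifr* was at 37.9, 53.0, 156 and 145 CPM in WT livers and at 35.95 to 105 CPM (median 45.1) in SIRTintKO livers. WT replicates 3 and 4 stayed in the range of 6 hours, and SIRTintKO replicate 5, at 105 CPM, was the highest of its group. The log2 fold change from 0 hours was -1.91 in WT (SE 0.313, edgeR BH-adjusted p = 3.78e-05) and -3.00 in SIRTintKO livers (SE 0.265, edgeR BH-adjusted p = 1.11e-09). From 6 to 24 hours it fell further in SIRTintKO livers (log2 fold change -1.60, edgeR BH-adjusted p = 6.23e-05), and in WT livers the value was -0.71 (edgeR BH-adjusted p = 0.0976). Without WT replicates 1 and 2 the WT value against 0 hours was -1.29 (edgeR BH-adjusted p = 0.00983), and without replicates 3 and 4 it was -3.00 (edgeR BH-adjusted p = 8.26e-08).

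*Il22ra1*, the chain that makes epithelial cells responsive to interleukin-22, was near the detection limit before surgery. At 0 hours it was at 0.0511 to 0.298 CPM (median 0.218) in WT and 0.124 to 0.296 CPM (median 0.135) in SIRTintKO livers, and these values rest on a mean of 3.33 and 2.67 counts per library. At 6 hours it was at 0.467 to 1.97 CPM (median 0.891) in WT livers and at 0.962, 2.32, 1.95, 0.243 and 0.898 CPM in SIRTintKO livers, and replicate 4 alone overlapped with 0 hours. It rose in both (log2 fold change 2.23, edgeR BH-adjusted p = 0.00127, and 2.84, edgeR BH-adjusted p = 0.000163). At 24 hours the 4 WT livers were at 2.46, 2.29, 0.419 and 0.747 CPM, and the SIRTintKO livers at 1.88 to 7.70 CPM (median 3.82). The SIRTintKO livers rose further between 6 and 24 hours (log2 fold change 1.77, edgeR BH-adjusted p = 0.0037), with 4.61 against 0 hours (SE 0.522, edgeR BH-adjusted p = 4.82e-08). The WT value against 0 hours was 2.84 (edgeR BH-adjusted p = 0.000235), and it was 1.53 (edgeR BH-adjusted p = 0.181) without replicates 1 and 2. *Il22* had 0 counts in all 34 libraries, and a count of 0 allows up to 3 counts per library, between 0.0982 and 0.233 CPM. This limit covers counting error only.

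The chains for IL-6 itself moved little. *Il6ra*, the chain that binds IL-6, had group medians between 30.5 and 51.3 CPM and did not pass the test at 6 hours, with log2 fold changes of -0.10 (95% interval -0.56 to 0.36) in WT and 0.11 (-0.37 to 0.59) in SIRTintKO livers. At 24 hours against 0 hours the values were -0.45 (edgeR BH-adjusted p = 0.176) and -0.50 (edgeR BH-adjusted p = 0.0529), and the latter passed in 17 of 34 fits with 1 library omitted, where it ran from -0.63 to -0.26. Against 6 hours it fell in SIRTintKO livers by 0.61 on the log2 scale (edgeR BH-adjusted p = 0.0433), a call that did not hold in 18 of 34 fits with 1 library omitted. *Il6st*, the shared signal-transducing chain, had group medians between 81.9 and 124 CPM. In SIRTintKO livers it was at 70.5 to 93.8 CPM (median 86.0) at 0 hours and at 125, 123, 124, 156 and 108 CPM at 6 hours, without overlap, a log2 fold change of 0.57 (SE 0.148, edgeR BH-adjusted p = 0.00271). In WT livers the value at 6 hours was 0.30 (edgeR BH-adjusted p = 0.0925), with replicate 2 at 0 hours, at 138 CPM, above every 6-hour liver. Without that library and SIRTintKO 24-hour replicate 5 together it rose in WT livers as well, at 0.47 (edgeR BH-adjusted p = 0.00396). At 24 hours *Il6st* did not pass in either genotype against 0 hours, and in SIRTintKO livers it fell against 6 hours (log2 fold change -0.46, edgeR BH-adjusted p = 0.017), a call lost without SIRTintKO 6-hour replicate 4.

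*Jak3* encodes a JAK kinase best known from lymphocytes, where it binds the common gamma chain encoded by *Il2rg*. At 0 hours it was at 8.35 to 11.5 CPM (median 9.77) in WT and 7.36 to 10.2 CPM (median 8.67) in SIRTintKO livers. At 6 hours it was at 16.3 to 29.8 CPM (median 25.7) in WT livers and at 26.2, 24.4, 22.5, 31.2 and 28.6 CPM in SIRTintKO livers, above every 0-hour liver. This rise was 1.31 in WT (SE 0.184, edgeR BH-adjusted p = 1.76e-06) and 1.61 in SIRTintKO livers (SE 0.192, edgeR BH-adjusted p = 1.71e-07) on the log2 scale. At 24 hours the WT livers were at 20.3, 12.3, 28.8 and 23.9 CPM, still without overlap, and the SIRTintKO livers at 7.71 to 21.4 CPM (median 13.3). Log2 fold changes from 0 to 24 hours were 1.10 (SE 0.199, edgeR BH-adjusted p = 0.000117) in WT and 0.73 (SE 0.178, edgeR BH-adjusted p = 0.00113) in SIRTintKO livers. In SIRTintKO livers *Jak3* fell from 6 to 24 hours by 0.88 on the log2 scale (edgeR BH-adjusted p = 0.000609).

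Lymphocyte markers were examined beside *Jak3*, and which cells carried its rise was not tested. The 10 T, NK and B lymphocyte markers examined summed to 4.04 to 4.58 CPM in WT livers at 0 hours and to 0.875 to 2.68 CPM at 6 hours. In SIRTintKO livers they summed to 2.18 to 6.82 and 1.26 to 2.67 CPM. Of the 10, 3 (*Cd3g*, *Cd79a* and *Il2rb*) passed the filter on low counts. At 6 hours 2 were lower in WT and 1 in SIRTintKO livers, beside 18.5% and 17.6% of all tested genes. *Ms4a1* and *Ncr1* were at 0 in all WT livers at 6 hours. *Il2rg* had a log2 fold change of -0.71 in WT (edgeR BH-adjusted p = 0.0538) and fell by 0.86 on the log2 scale in SIRTintKO livers (edgeR BH-adjusted p = 0.029). The other kinases of the family changed less in size. *Jak1* rose at 6 hours (0.30 in WT, edgeR BH-adjusted p = 0.022, and 0.39 in SIRTintKO livers, edgeR BH-adjusted p = 0.00499), while *Jak2* and *Tyk2* fell in WT livers, both with a log2 fold change of -0.55 (edgeR BH-adjusted p = 0.0233 and 0.000184).

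*Stat3*, the factor on which the pathway converges, rose in all 4 comparisons with 0 hours. At 0 hours it was at 85.0 to 179 CPM (median 101) in WT and 77.5 to 132 CPM (median 91.9) in SIRTintKO livers. At 6 hours it was at 160 to 205 CPM (median 184) in WT livers and at 208, 209, 200, 265 and 199 CPM in SIRTintKO livers. The WT groups overlapped through replicate 2 at 0 hours, the highest of its group at 179 CPM. The log2 fold change was 0.72 in WT (SE 0.174, edgeR BH-adjusted p = 0.00152) and 1.15 in SIRTintKO livers (SE 0.181, edgeR BH-adjusted p = 1.19e-05).

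At 24 hours *Stat3* was at 315, 314, 186 and 169 CPM in WT livers and at 109 to 210 CPM (median 148) in SIRTintKO livers. WT replicates 1 and 2 were above every other liver of the series. WT replicates 3 and 4 were within the SIRTintKO range only through SIRTintKO replicate 4, at 210 CPM. The other SIRTintKO livers at 24 hours were at 109 to 151 CPM, below all 4 WT livers. The log2 fold change from 0 hours was 1.16 in WT (SE 0.190, edgeR BH-adjusted p = 3.85e-05) and 0.61 in SIRTintKO livers (SE 0.168, edgeR BH-adjusted p = 0.00346). From 6 to 24 hours *Stat3* fell in SIRTintKO livers (-0.54, edgeR BH-adjusted p = 0.02), a call lost without SIRTintKO 6-hour replicate 4 or SIRTintKO 24-hour replicate 6, and in WT livers the value was 0.44 (edgeR BH-adjusted p = 0.113). At 6 hours *Stat5a*, *Stat5b* and *Stat6* fell in WT livers, and of these *Stat5b* passed the test in SIRTintKO livers. *Stat5b*, which carries growth hormone signals in hepatocytes, had log2 fold changes of -1.48 (edgeR BH-adjusted p = 9.44e-09) and -1.10 (edgeR BH-adjusted p = 3.5e-06).

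The inhibitor *Socs3* varied widely between untreated livers. At 0 hours it was at 13.5 to 96.8 CPM (median 36.3) in WT and 11.3 to 174 CPM (median 30.3) in SIRTintKO livers. Livers at 6 hours were at 66.2 to 93.6 CPM (median 80.4) in WT livers and at 121, 137, 110, 147 and 124 CPM in SIRTintKO livers. Every SIRTintKO liver at 6 hours was above every WT liver at 6 hours, but both groups overlapped with 0 hours. The log2 fold change from 0 hours was 0.71 in WT (SE 0.519, edgeR BH-adjusted p = 0.295) and 1.21 in SIRTintKO livers (SE 0.542, edgeR BH-adjusted p = 0.0771), and neither passed. Without SIRTintKO 0-hour replicate 3, the highest of its group at 174 CPM, the latter rose, at 2.01 (edgeR BH-adjusted p = 0.00271). That was the only 1 of 34 fits with 1 library omitted in which it was called, so the call depends on that choice.

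At 24 hours *Socs3* was at 244, 265, 49.1 and 55.7 CPM in WT livers and at 42.3 to 179 CPM (median 64.7) in SIRTintKO livers. WT replicates 1 and 2 were the 2 highest livers of the series and replicates 3 and 4 lay below every 6-hour liver. The WT log2 fold change from 0 hours was 1.65 (SE 0.570, edgeR BH-adjusted p = 0.0245), and it was 0.11 (edgeR BH-adjusted p = 0.961) without replicates 1 and 2. The WT call was also lost in 5 of 34 fits with 1 library omitted, namely WT 24-hour replicates 1 or 2 or WT 0-hour replicates 3, 4 or 5. In SIRTintKO livers the value was 0.57 (SE 0.502, edgeR BH-adjusted p = 0.353), and without SIRTintKO 0-hour replicate 3 it was 1.38 (edgeR BH-adjusted p = 0.0184). That was again the only 1 of the 34 fits in which the SIRTintKO value was called.

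The *Socs3* promoter is printed here because it is the member with a STAT motif near its start. The motif searched was TTCNNNGAA, which reads the same on both strands, in windows from 250 bases before to 50 bases after each gene's start, taken from RefSeq on the mouse build GRCm38.p6. All 10 genes had a window, 12 in all, and 1 of the 12 held the motif, as did 8.3% of the 32851 windows of all genes. The match in *Socs3* lies at -154 to -146 from the start. The 250 bases before the start, chr11:117969367-117969616 on the minus strand, are given 5′ to 3′ with the match in capitals.
*Socs3*: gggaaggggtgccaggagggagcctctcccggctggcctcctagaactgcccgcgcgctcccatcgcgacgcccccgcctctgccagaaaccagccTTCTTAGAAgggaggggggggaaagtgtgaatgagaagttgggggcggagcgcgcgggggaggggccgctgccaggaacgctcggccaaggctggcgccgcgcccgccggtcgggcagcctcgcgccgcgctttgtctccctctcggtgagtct
The match describes these letters only. The deposited counts were made on another build, GRCm39 by the submitters' processing notes, so no coordinates were carried between them.

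Over the 34 livers, *Socs3* and *Stat3* were high in the same libraries, with a Pearson correlation of 0.73 between their log2 CPM after the mean of each group was taken out. These points share library depth and composition, and the value is a description. Of all other tested genes, those whose log2 CPM followed *Socs3* most closely over the 34 libraries were *Csrnp1* (Pearson r = 0.85), *Slc41a1* (0.84), *Arid5a* (0.83), *Slc39a14* (0.82) and *Sema6b* (0.81). Those for *Osmr* were *Mvp* (0.95), *Slc39a1* (0.94), *Ccne1* (0.94), *Specc1* (0.94) and *Cyb561* (0.93).

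**Figure D3:**
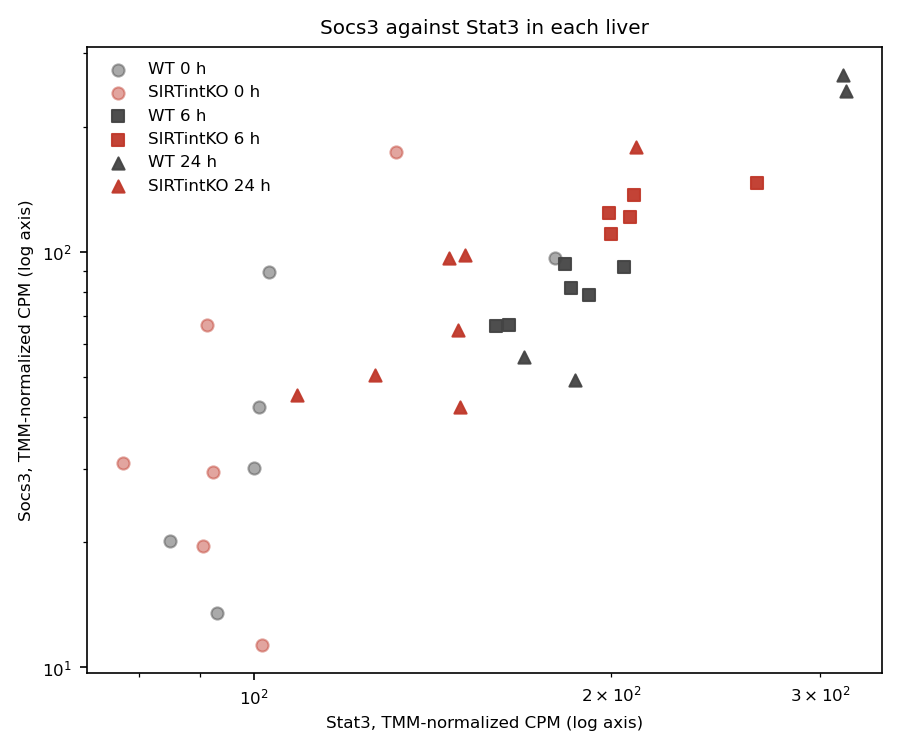
*Socs3* against *Stat3* in each liver, both as TMM-normalized CPM on log axes, with circles for 0 hours, squares for 6 hours and triangles for 24 hours (grey WT, red SIRTintKO). WT replicates 1 and 2 at 24 hours lie at the upper right, at 315 and 314 CPM of *Stat3*, and the 5 SIRTintKO livers at 6 hours lie above the 6 WT livers in *Socs3*.

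*Socs1*, an inhibitor that binds JAK kinases directly, was low before surgery, at 0.3 to 2.35 CPM (median 0.605) in WT and 0.328 to 1.12 CPM (median 0.48) in SIRTintKO livers. At 6 hours it was at 0.239 to 2.84 CPM (median 0.428) in WT livers and at 0.834, 2.68, 1.19, 3.34 and 1.02 CPM in SIRTintKO livers, and neither change passed (edgeR BH-adjusted p = 0.962 and 0.143). At 24 hours it was at 7.01, 35.6, 0.89 and 0.448 CPM in WT livers and at 0.375 to 8.08 CPM (median 1.12) in SIRTintKO livers. It rose in WT (log2 fold change 3.65, SE 0.864, edgeR BH-adjusted p = 0.00174) and in SIRTintKO livers (2.24, SE 0.825, edgeR BH-adjusted p = 0.0242). The WT value rests on replicates 1 and 2. Without replicate 2 alone it was 1.67 (edgeR BH-adjusted p = 0.149), and without both it was -0.38 (edgeR BH-adjusted p = 0.891). The SIRTintKO call was lost without SIRTintKO 24-hour replicate 4, at 1.67 (edgeR BH-adjusted p = 0.0908), and without SIRTintKO 0-hour replicate 5.

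Between 6 and 24 hours, 1 of the 10 genes rose and 0 fell in WT livers, beside 10% and 6.43% of all tested genes. That gene was *Socs1* (log2 fold change 3.71, edgeR BH-adjusted p = 0.00402), and it was not called without replicates 1 and 2, at -0.32 (edgeR BH-adjusted p = 0.885). *Lepr* was then called lower instead, at -3.43 (edgeR BH-adjusted p = 0.00231), beside 5.54% of all tested genes called higher and 3.98% lower. Without replicates 3 and 4, *Osmr* (1.52), *Il22ra1* (1.34), *Stat3* (0.82), *Socs1* (4.72) and *Socs3* (1.70) were called higher and *Lifr* lower (-1.79), 6 genes beside 18.2% and 14.94% of all tested genes, with edgeR BH-adjusted p from 5.05e-05 to 0.0436. Leaving out single libraries gave 1 to 4 calls, with 4 without WT 24-hour replicate 3 or 4. In SIRTintKO livers 1 rose and 6 fell over the same interval, beside 13.2% and 14.4% of all tested genes. *Il22ra1* rose, and *Il6ra*, *Il6st*, *Lifr*, *Lepr*, *Jak3* and *Stat3* fell. With the requirement of a log2 fold change over 1 in size, 3 of the 7 passed.

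Before surgery 0 of the 10 genes differed between the genotypes by edgeR, as did 0% of all tested genes, and 0 had an unadjusted p under 0.05. DESeq2 also called 0. At 6 hours the same counts were 0, 0%, 0 and 0. The 10 log2 differences (SIRTintKO minus WT) at 6 hours ran from -0.28 to 1.11. *Socs3* had 0.68 (95% interval -0.42 to 1.78, edgeR BH-adjusted p = 0.833). It was the 1 gene of the 10 whose genotypes did not overlap at 6 hours, beside 0.474% of all tested genes. When the spread was estimated from the 2 groups at 6 hours alone, its unadjusted p was 8.54e-05 and its adjusted p 0.559, against an unadjusted p of 0.218 with all groups. The interaction, which compares the changes from 0 to 6 hours between genotypes, was called for 0 of the 10 and 0% of all tested genes, with 0 of the 10 at an unadjusted p under 0.05, and DESeq2 called 0.

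At 24 hours, *Il22ra1* was higher and *Lifr*, *Lepr* and *Stat3* were lower in SIRTintKO than in WT livers, 1 and 3 of the 10 genes, beside 2.3% and 3.51% of all tested genes. In none of the 10 did the genotypes separate without overlap, where 1.97% of all tested genes did. The log2 difference was 1.56 for *Il22ra1* (SE 0.475, edgeR BH-adjusted p = 0.0454), -0.91 for *Lifr* (SE 0.278, edgeR BH-adjusted p = 0.0465), -1.88 for *Lepr* (SE 0.564, edgeR BH-adjusted p = 0.0434) and -0.73 for *Stat3* (SE 0.184, edgeR BH-adjusted p = 0.0206). *Jak3* had -0.56 (edgeR BH-adjusted p = 0.072), *Socs1* -1.99 (edgeR BH-adjusted p = 0.11) and *Socs3* -0.90 (edgeR BH-adjusted p = 0.322). When only the 2 groups at 24 hours were fitted, 0 of the 10 were called.

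These 4 calls rested on different WT libraries. Without WT replicates 1 and 2, *Il22ra1* (2.88, edgeR BH-adjusted p = 0.00329), *Lifr* (-1.53, edgeR BH-adjusted p = 0.000427) and *Jak3* (-0.87, edgeR BH-adjusted p = 0.006) were called, whereas *Lepr* turned to 0.88 (edgeR BH-adjusted p = 0.34) and *Stat3* was at -0.26 (edgeR BH-adjusted p = 0.409). In that fit 8.28% of all tested genes were called higher and 8.72% lower. Without WT replicates 3 and 4, *Stat3* (-1.11, edgeR BH-adjusted p = 0.000317), *Lepr* (-2.81, edgeR BH-adjusted p = 0.000392) and *Socs1* (-3.00, edgeR BH-adjusted p = 0.00438) were called, whereas *Lifr* turned to 0.17 (edgeR BH-adjusted p = 0.715) and *Il22ra1* was at 0.84 (edgeR BH-adjusted p = 0.278), beside 7.5% of all tested genes called higher and 11.1% lower. Leaving out single libraries gave between 1 and 5 calls, and without WT replicate 2 alone *Lepr* was at -0.68 (edgeR BH-adjusted p = 0.486) and *Stat3* at -0.60 (edgeR BH-adjusted p = 0.0733). Without WT 0-hour replicate 2 and SIRTintKO 24-hour replicate 5, the 4 calls were made again and *Jak3* was called as well (-0.69, edgeR BH-adjusted p = 0.0153), beside 5.02% and 7.71% of all tested genes. Each fit without a pair of WT livers left 2 WT livers at 24 hours.

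**Figure D4:**
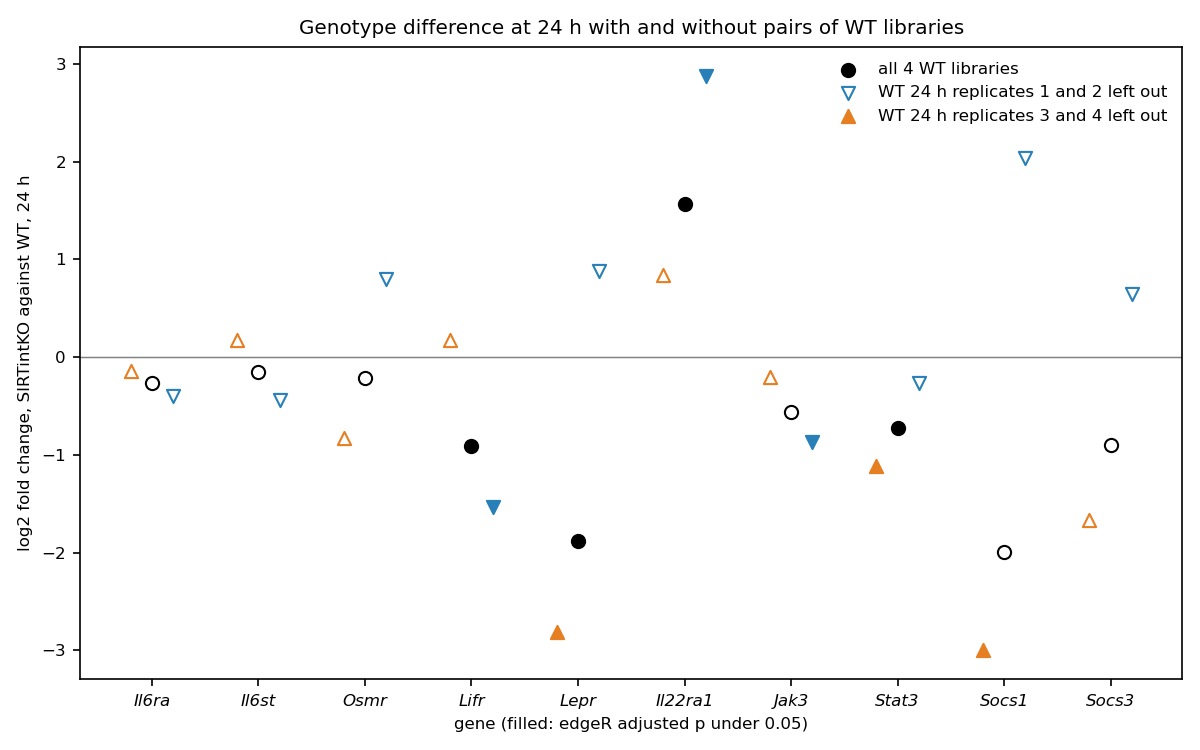
Log2 difference between SIRTintKO and WT livers at 24 hours for the 10 genes, with all 4 WT libraries (circles), without WT replicates 1 and 2 (downward triangles) and without WT replicates 3 and 4 (upward triangles). Filled symbols passed an edgeR BH-adjusted p under 0.05, and for *Lepr*, *Lifr*, *Socs1*, *Socs3*, *Osmr* and *Il6st* the triangles lie on opposite sides of 0.

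Some marker lists separated the same 4 WT livers and others did not, with sums given here in the order of replicates 1 to 4. The 5 cholangiocyte markers summed to 482, 264, 64.5 and 78.8 CPM, the 6 neutrophil markers to 105, 88.2, 11.05 and 5.28 CPM, and the 8 hepatocyte markers to 35747, 39517, 48035 and 55855 CPM. The SIRTintKO livers at 24 hours spanned 53.7 to 334 CPM, 18.5 to 944 CPM and 41453 to 82512 CPM in these lists. *Spp1* and *Sox9*, with means of 164 and 49.9 CPM in WT livers at 24 hours, made up most of the cholangiocyte sum. *Epcam*, *Krt19* and *Krt7* had means of 4.25, 2.32 and 1.46 CPM in the same livers. The 6 sinusoidal endothelial markers, at 36.1, 38.4, 97.5 and 72.2 CPM, also separated the pairs, as did the 6 stellate cell markers, at 173, 151, 196 and 224 CPM. SIRTintKO livers at 24 hours spanned 50.9 to 108 CPM and 146 to 216 CPM in these 2 lists. The 6 monocyte and macrophage markers, at 68.4, 29.7, 46.8 and 42.1 CPM, did not separate the pairs. Neither did the 7 Kupffer cell markers, at 151, 38.1, 142 and 108 CPM, nor the lymphocyte markers, at 1.23, 0.571, 3.35 and 0.946 CPM. Of the 6 monocyte and macrophage markers, 2 were higher in SIRTintKO than in WT livers at 24 hours, beside 2.3% of all tested genes. *Ly6g* of the neutrophil list did not pass the filter on low counts. The pairs were set from these same libraries, and with only 4 livers a list can separate them by chance, so the separations are a description. The part of these markers in the differences between libraries was not tested.

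The interaction between genotype and time at 24 hours was found for 0 of the 10 genes with all libraries and for 0.00668% of all tested genes, which is 1 gene. DESeq2 called 0 of the 10, and 3 (*Lifr*, *Il22ra1* and *Stat3*) had an unadjusted p under 0.05. Without WT replicates 1 and 2 it was called for *Lifr* (-1.71, edgeR BH-adjusted p = 0.00565) and *Il22ra1* (3.08, edgeR BH-adjusted p = 0.0295), beside 3.57% of all tested genes called negative and 3.64% called positive. Without replicates 3 and 4 it was called for *Stat3* (-0.94, edgeR BH-adjusted p = 0.026), beside 4.3% called negative and 2.87% called positive. Without WT 0-hour replicate 2 and SIRTintKO 24-hour replicate 5 it was called for *Lifr* (-1.43, edgeR BH-adjusted p = 0.0322), beside 1.14% called negative and 0.537% called positive.

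Of 11 ligand genes examined, 5 passed the filter on low counts. *Il6* was at 0 to 0.562 CPM in untreated WT livers and at 0 to 0.261 CPM in WT livers at 6 hours, with no call at 6 hours in either genotype (edgeR BH-adjusted p = 0.55 and 0.872). In SIRTintKO livers at 24 hours it was at 0.0938 to 1.17 CPM (median 0.542) and rose by a log2 fold change of 2.22 (edgeR BH-adjusted p = 0.0303). *Clcf1*, a cytokine that acts through the receptor for ciliary neurotrophic factor, was the ligand with the largest change. It was at 0.781 to 1.43 CPM in untreated WT livers and at 43.5, 72.1, 3.56 and 2.64 CPM in WT livers at 24 hours, the split already seen in *Socs3*. Between the genotypes at 24 hours its log2 difference was -0.56 (edgeR BH-adjusted p = 0.595), with 2.73 (edgeR BH-adjusted p = 0.00826) without WT replicates 1 and 2 and -1.52 (edgeR BH-adjusted p = 0.0352) without replicates 3 and 4. Its log2 fold changes from 0 to 24 hours were 4.82 in WT (edgeR BH-adjusted p = 8.17e-06) and 4.53 in SIRTintKO livers (edgeR BH-adjusted p = 2.96e-06). *Lif* rose at 24 hours too (3.30, edgeR BH-adjusted p = 0.00627, and 4.04, edgeR BH-adjusted p = 0.000122). Both WT calls were lost without WT replicates 1 and 2, with 1.53 (edgeR BH-adjusted p = 0.166) for *Clcf1* and 1.27 (edgeR BH-adjusted p = 0.634) for *Lif*. In contrast, *Ctf1*, the gene of cardiotrophin-1, fell at 6 hours in both genotypes (-1.06, edgeR BH-adjusted p = 0.00025, and -0.96, edgeR BH-adjusted p = 0.00123).

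Further negative regulators were examined, 14 in number and all tested. At 6 hours 5 were higher and 1 lower in WT livers, beside 18.9% and 18.5% of all tested genes. In SIRTintKO livers 6 were higher and 1 lower, beside 20.9% and 17.6%. Phosphatases were among those that rose. *Ptpn1* had log2 fold changes of 1.07 (edgeR BH-adjusted p = 0.000197) and 1.54 (edgeR BH-adjusted p = 3.3e-06), and *Ptpn2* of 1.19 (edgeR BH-adjusted p = 0.00434) and 1.22 (edgeR BH-adjusted p = 0.00488). *Socs2*, an inhibitor of growth hormone signals, fell in WT livers at 6 hours (-1.83, edgeR BH-adjusted p = 0.0236) and was at -1.61 (edgeR BH-adjusted p = 0.055) in SIRTintKO livers. At 24 hours *Socs6* and *Socs7* were lower in SIRTintKO than in WT livers (-0.60, edgeR BH-adjusted p = 0.0434, and -0.61, edgeR BH-adjusted p = 0.0454). These were 2 of the 14, beside 3.51% of all tested genes called lower. Without WT replicates 1 and 2, 2 others of the 14 were called, *Socs5* and *Ptpn11*, both higher. Without replicates 3 and 4, 5 of the 14 were lower (*Socs6*, *Socs7*, *Pias1*, *Ptpn2* and *Ptpn11*) and *Ptpn6* was higher (1.08, edgeR BH-adjusted p = 7.61e-05), and *Ptpn11* was then at -0.39 (edgeR BH-adjusted p = 0.0362). Shares of all tested genes in these 2 fits are given above with the members. Of the 6 other receptor chains tested, 1 was higher and 1 lower in SIRTintKO than in WT livers at 24 hours, beside 2.3% and 3.51% of all tested genes. *Il2rg* was higher (1.05, edgeR BH-adjusted p = 0.0485), at 0.69 (edgeR BH-adjusted p = 0.198) without WT replicates 1 and 2. *Il13ra1*, part of the interleukin-13 receptor, was lower (-1.10, edgeR BH-adjusted p = 0.00496), at 26.9 to 66.0 CPM (median 40.4) against 108, 138, 68.3 and 62.8 CPM in WT livers. Without WT replicates 1 and 2 its value was -0.58 (edgeR BH-adjusted p = 0.0888).

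Genes that STAT3 is known to raise in hepatocytes, mostly of the acute phase, were examined, 26 in all. RNA-seq does not measure the activity of STAT3, and whether STAT3 caused the changes in these genes was not tested. At 6 hours 18 rose and 2 fell in WT livers, beside 18.9% and 18.5% of all tested genes. In SIRTintKO livers 19 rose and 1 fell, beside 20.9% and 17.6%. Median log2 fold changes of the 26 were 1.83 and 1.87, against 0.02 and 0.01 over all genes. *Lcn2* rose in both (7.49, edgeR BH-adjusted p = 1.46e-10, and 7.63, edgeR BH-adjusted p = 2e-10), and *Hp*, which encodes haptoglobin, rose by 2.53 (edgeR BH-adjusted p = 2.13e-10) and 2.42 (edgeR BH-adjusted p = 1.31e-09). The fibrinogen genes *Fga*, *Fgb* and *Fgg* rose in both genotypes, by between 1.69 and 1.94. *Pim1* fell in both, and *Mcl1* in WT livers. Reads of the paralogs *Saa1* and *Saa2*, and of *Orm1* and *Orm2*, could have been split between them, so their single values are uncertain.

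**Figure D5:**
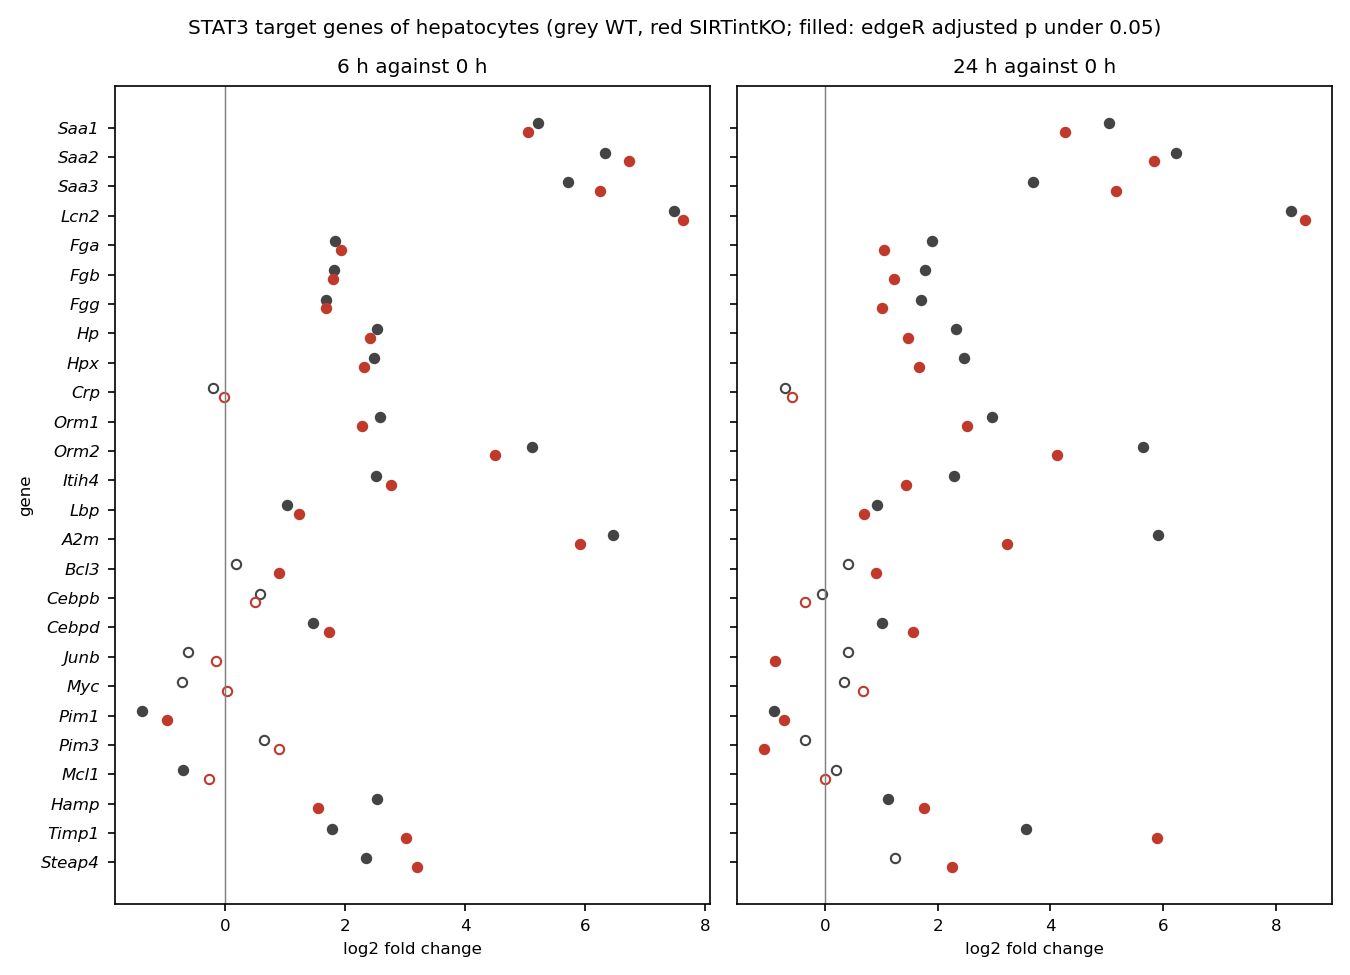
Log2 fold change from 0 hours of the 26 STAT3 target genes at 6 hours (left) and 24 hours (right), in WT (grey) and SIRTintKO livers (red). Filled points passed an edgeR BH-adjusted p under 0.05. At 24 hours *Fga*, *Hp*, *Hpx* and *Itih4* lie further to the right in WT livers than in SIRTintKO livers.

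At 24 hours against 0 hours, 17 of the 26 rose and 1 fell in WT livers, beside 19.5% and 14.6% of all tested genes. In SIRTintKO livers 19 rose and 3 fell, beside 26.2% and 24%. From 6 to 24 hours, 2 rose and 1 fell in WT livers, beside 10% and 6.43% of all tested genes, and 1 rose and 10 fell in SIRTintKO livers, beside 13.2% and 14.4%. The WT counts were 1 and 4 without WT replicates 1 and 2 (median -0.45) and 5 and 1 without replicates 3 and 4 (median 0.27). Directly compared at 24 hours, 6 were lower and 0 higher in SIRTintKO livers, beside 3.51% and 2.3% of all tested genes. The 6 were *Fga*, *Fgg*, *Hp*, *Hpx*, *Itih4* and *Junb*, with log2 differences between -1.40 (*Junb*) and -0.73 (*Fgg*). The median of the 26 was -0.31, against -0.02 over all genes. Without WT replicates 1 and 2, 1 was lower (*Itih4*, -0.93, edgeR BH-adjusted p = 0.00427) and 1 higher (*Cebpd*, 1.48, edgeR BH-adjusted p = 0.016), with a median of -0.01. Without WT replicates 3 and 4, 10 were lower and 0 higher, with a median of -0.84. *Itih4* was called lower in both, and its value with all libraries was -1.07 (edgeR BH-adjusted p = 0.00195). Shares of all tested genes differed between the fits without a pair of WT livers and are given above with the members.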

How the data were processed

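Liver RNA from 34 mice was sequenced. The authors aligned reads with STAR and quantified them with Salmon on GRCm39 (submitters' processing notes, versions not given in the sources used here) and deposited expected counts per gene. Of the deposited values, 4.975% were not whole, and all were rounded. The table held 35 columns of counts, of which 1 matched no sample label and was not used. Depth was 14892122 to 23480492 counts per library. Groups came from the labels. 1255 symbols lacking a letter were restored from identifiers.

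Counts were scaled by TMM and filtered with filterByExpr, and 1 quasi-likelihood model with 6 groups was fitted in edgeR 4.0.16 (R 4.3.3), which gave 14980 tested genes and Benjamini-Hochberg adjusted p-values over all of them. Members and pathway lists were chosen with earlier results of these data known. All members are named. Other pathway genes are given as counts per list, and by name only where they passed a test in a comparison or are the ligand or partner of a member, and not every such gene is named. The genes most alike *Socs3* and *Osmr* were the 5 with the highest Pearson correlation. Alternatives were DESeq2 1.42.0, other scalings and filters, a replicate block, the compared groups alone, a test against a log2 change of 1, and leaving out libraries. The procedure was tested on simulated data. Replicate numbers did not pair the libraries (median correlation of deviations -0.00364 over 76 same-numbered pairs, 6 over 0.1). The labels call the samples biological replicates. Promoter windows came from RefSeq on GRCm38.p6.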

Additional observations from a re-analysis of the deposited data

Results flagged for a closer look

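In 11 of 60 groups of 4 to 7 livers, 1 liver lay far from the others of its group by Dixon's criterion. Chance alone meets it in about 1 in 20 groups where values are normally distributed. The criterion was applied to CPM without logs, and groups of different genes share livers. That rate is therefore no measure for the 11. All 11 were the highest of their group. WT 0-hour replicate 2 accounted for 5, with *Il6st* at 138 CPM (others 73.4 to 86.1), *Osmr* at 10.8 CPM (2.52 to 4.74), *Lepr* at 10.8 CPM (1.14 to 3.12), *Stat3* at 179 CPM (85.0 to 103) and *Socs1* at 2.35 CPM (0.3 to 0.954). SIRTintKO 24-hour replicate 4 had *Stat3* at 210 CPM (109 to 151) and *Socs3* at 179 CPM (42.3 to 98.0). SIRTintKO 0-hour replicate 3 had *Socs3* at 174 CPM (11.3 to 66.7). SIRTintKO 24-hour replicate 5 had *Lifr* at 105 CPM (35.95 to 48.6), SIRTintKO 6-hour replicate 4 had *Stat3* at 265 CPM (199 to 209), and WT 6-hour replicate 1 had *Socs1* at 2.84 CPM (0.239 to 0.849).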

How the results depend on the processing

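Counts of the 10 genes called depended on the libraries and on the threshold, and where a count moved the cause was not tested. Tested against a log2 change of 1 with glmTreat, 1 gene was called at 6 hours in WT, 4 in SIRTintKO, 5 at 24 hours in WT and 3 in SIRTintKO livers, with 0 between 6 and 24 hours in either genotype and 0 between genotypes at 24 hours. Requiring a log2 fold change over 1 left 3 calls from 6 to 24 hours in SIRTintKO livers and 2 between genotypes at 24 hours. With no filter beyond 1 count per gene, 1 was called between genotypes at 24 hours. The WT comparison of 24 with 6 hours gave 0 with only genes of at least 10 counts in every library, which dropped *Socs1*, 0 with the compared groups alone, 6 without WT 24-hour replicates 3 and 4, and 2 without WT 0-hour replicate 2 and SIRTintKO 24-hour replicate 5. Between genotypes at 24 hours the compared groups alone gave 0. Replicate numbers did not pair the libraries, and with a replicate block 4 genes were called from 6 to 24 hours in SIRTintKO livers and 0 between genotypes at 24 hours. Without WT 24-hour replicates 1 and 2, 4 were called at 24 against 0 hours in WT livers and 2 in the interaction at 24 hours, which had 1 call without replicates 3 and 4 and 1 without WT 0-hour replicate 2 and SIRTintKO 24-hour replicate 5. Leaving out 1 library at a time gave 1 to 4 calls for WT and 4 to 7 for SIRTintKO livers from 6 to 24 hours, 1 to 5 between genotypes at 24 hours, and 0 to 1 in the interaction. Of the 4 genotype calls, *Lifr* was lost in 16 of the 34 fits, *Il22ra1* in 21, *Lepr* in 6 and *Stat3* in 1. Directions turned as follows. *Socs1* at 6 hours in WT livers was 0.25 with the block, 0.57 without WT 0-hour replicate 2 and SIRTintKO 24-hour replicate 5, and -0.97 to 0.57 with single libraries left out, where *Il6ra* at 6 hours in SIRTintKO livers ran from -0.0326 to 0.35 and *Osmr* between genotypes at 24 hours from -0.46 to 0.37. Without WT replicates 3 and 4, *Il6st* at 24 hours in WT livers was -0.14, *Lepr* from 6 to 24 hours 0.26, and *Il6st* and *Lifr* between genotypes 0.18 and 0.17. Without replicates 1 and 2, *Socs1* was -0.38 at 24 against 0 hours and -0.32 against 6 hours, *Socs3* -0.61 against 6 hours, and *Osmr*, *Lepr*, *Socs1* and *Socs3* between genotypes 0.80, 0.88, 2.03 and 0.65. With DESeq2, 63 of 64 single values kept direction and call. Some fits on fewer genes gave no value for *Il22ra1* and *Socs1*, which had low counts.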
